A study of Homo sapiens with 12 samples.

Results

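The T-box family encodes transcription factors that share a DNA-binding T domain, and 10 of its genes were examined among 20037 protein-coding genes: TBXT, EOMES, TBR1, TBX1, TBX2, TBX3, TBX4, TBX5, TBX6 and TBX20. The genes were listed by symbol (RefSeq, GRCh38.p14, the hg38 assembly), and every deposited peak over a gene body or within 10 kb of either end was assigned to that gene's window. Chromatin immunoprecipitation with sequencing (ChIP-seq) had been done in H1, a long-established line of human embryonic stem cells. The groups were YTHDF1 ChIP and input from H1 cells treated with a YTHDF1 shRNA (the knockdown), and YTHDF1, RNF2 and H2AK119ub ChIP and input from untreated H1 cells (the wild type), each of 2 replicates. The authors had merged the replicates of each ChIP into 1 peak list, so there was no spread between replicates, no test between groups was possible, and sequencing depth was unknown. The labels did not say how many shRNAs or clones the knockdown represents.

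T-box factors act early in the embryo. TBXT (brachyury) and EOMES open the primitive streak programme of mesoderm and endoderm formation, TBX6 directs paraxial mesoderm, and the others pattern heart, limb, pharyngeal arches and forebrain. RNF2 is an E3 ubiquitin ligase within Polycomb repressive complex 1 (PRC1), which places ubiquitin on a lysine in the tail of histone H2A (H2AK119ub), and PRC1 is known to sit on silent developmental regulator genes in embryonic stem cells. YTHDF1 is a reader of N6-methyladenosine on RNA. The peak lists carry no expression values, so neither the stem cell state nor silence of the T-box genes was checked from them. Of the usual pluripotency genes, NANOG had no RNF2 peak in its window, POU5F1 had only a short RNF2 peak of 2.43-fold, and SOX2 had a 23.5 kb RNF2 peak of 25.05-fold. H2AK119ub islands covered 6.72% of the NANOG window, 86.9% of the POU5F1 window and 100% of the SOX2 window.

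In wild-type cells 9 of the 10 T-box genes had an RNF2 peak of at least 10 kb in their window, and TBX6 did not. That peak covered the whole gene body at 5 of them and part of it at the others. Such a peak was present in the windows of 4.38% of all coding genes. The 9 wide peaks measured from 19.0 to 64.0 kb and had fold enrichments from 50.4 to 107, where the fold is the single value the authors' list gives for a peak and says nothing of the level along its width. The other 28 RNF2 peaks in the windows were 408 to 4236 bp wide with fold enrichments from 2.62 to 6.52, so the members' RNF2 peaks fell into these separate size classes. Any RNF2 peak was found at 10 of 10 members, against 75.9% of coding genes, and any H2AK119ub island at 10 of 10, against 81.6%. An island of at least 10 kb was present at all 10 members, against 37.4% of coding genes. The median of the widest RNF2 peak was 30.1 kb for the members and 2.14 kb for the 15211 coding genes with an RNF2 peak in their window. The 10 kb width was chosen with these widths known, and the count stood at 9 with a width of 5 kb and at 8 with 20 kb, when 11.0% and 2.36% of coding genes passed.

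**Figure D1:**
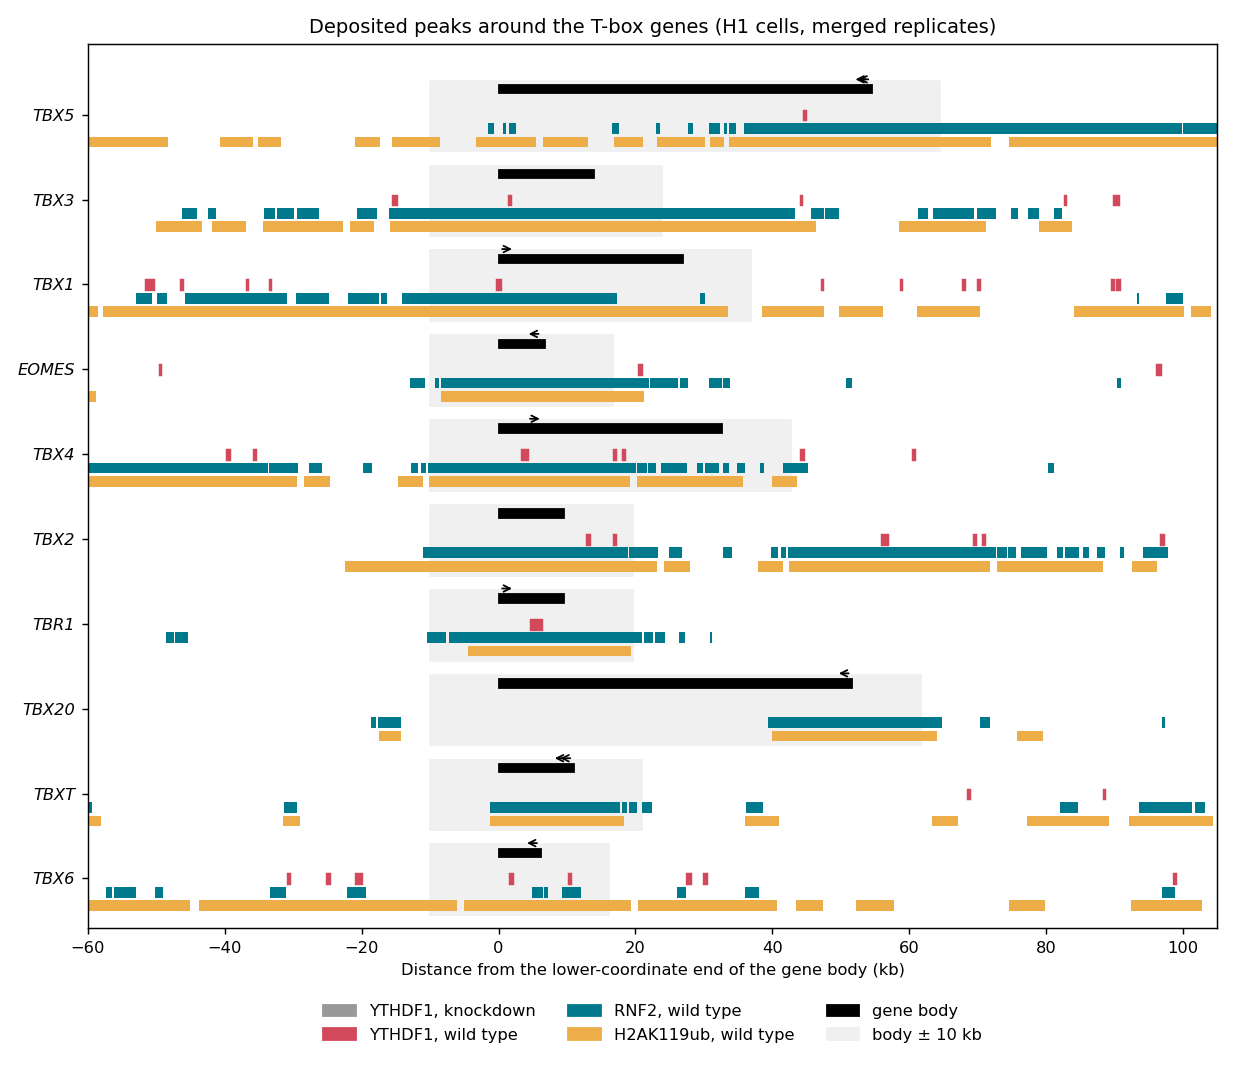
Peaks of the 4 deposited lists around each T-box gene, in kb from the lower-coordinate end of the gene body, with genes in order of their widest RNF2 peak. Black bars are gene bodies, arrows are RefSeq start sites with their direction (none is drawn for TBX2 and TBX3), grey shading is the body with 10 kb either side, and coloured bars are peaks. Wide RNF2 peaks lie over all or part of 9 gene bodies with H2AK119ub beneath them. TBX6 has only short RNF2 peaks in its window, on a long island, and the knockdown track is empty.

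The brachyury gene and the EOMES and TBR1 genes were covered along their whole length. TBXT (chromosome 6, 166157656 to 166168655) lay inside an RNF2 peak of 19.0 kb and 50.4-fold, from 166156435 to 166175417, the narrowest and weakest of the 9 wide peaks. Its H2AK119ub island, 19.6 kb long, began within 0.034 kb and ended within 0.583 kb of that peak. The peak also reached over LNCDAT, a non-coding gene next to TBXT. EOMES (chromosome 3, 27715953 to 27722713), which also works in early neuronal progenitors and T cells, had an RNF2 peak of 30.4 kb and 98.6-fold that ran 8.46 kb past its lower and 15.2 kb past its upper end. TBR1 (chromosome 2, 161416297 to 161425870), a factor of cortical projection neurons and the closest relative of EOMES, had the highest fold of the members, 107-fold over 28.2 kb. That was the 12th highest fold of 29310 RNF2 peaks, and the EOMES peak was the 26th. RNF2 peaks covered 98.6% of the TBR1 window and 96.5% of the EOMES window. The H2AK119ub island at TBR1 was shorter than the RNF2 peak, at 23.8 kb, and left 2.74 kb of it bare at the lower end and 1.62 kb at the upper end.

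TBX1 and TBX20, members of the TBX1 subfamily, were covered only in part. TBX1 (chromosome 22, 19756703 to 19783593), a factor of the pharyngeal arches and the cardiac outflow tract, had an RNF2 peak of 31.5 kb and 69.0-fold that began 14.2 kb upstream of the gene and stopped 9.54 kb before its 3′ end. Its H2AK119ub island was the longest of the members, at 91.2 kb, and ran 43.5 kb below and 16.1 kb above the RNF2 peak. TBX20 (chromosome 7, 35202430 to 35254100), a regulator of heart chamber development, had a 25.4 kb RNF2 peak of 80.8-fold over its 5′ end. That peak extended 13.1 kb upstream and covered 23.8% of the gene body, and no other RNF2 peak lay in the window. The island matched it, with ends within 0.602 and 0.769 kb, so 22.6% of the TBX20 body carried H2AK119ub, against 100% of the TBX1 body.

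The TBX2 subfamily stands in 2 tandem gene pairs, TBX2 with TBX4 on chromosome 17 and TBX5 with TBX3 on chromosome 12. TBX2 (61399843 to 61409466) and TBX3 (114670255 to 114684175), repressors used in limb, heart and mammary development, lay wholly inside RNF2 peaks of 29.9 kb at 62.3-fold and 59.3 kb at 83.5-fold. The islands there were 45.6 kb at TBX2 and 62.2 kb at TBX3, and each covered 100% of its gene's window. TBX4 (61452422 to 61485110), a hindlimb and lung mesenchyme factor, had a 30.4 kb RNF2 peak of 76.5-fold over 61.3% of its body. A further 9 RNF2 peaks of 0.564 to 3.89 kb lay along the rest of its window, and RNF2 reached 90.0% of the body in all. TBX5 (114353911 to 114408442), a forelimb and heart factor, had the widest RNF2 peak of the members, 64.0 kb at 74.2-fold, the 13th widest of the list, and the TBX3 peak was the 16th. The TBX5 peak covered only 34.4% of the gene body and ran 45.2 kb past the end with the start sites, over the non-coding genes TBX5-AS1 and LOC105369998. Downstream in the TBX5 window 9 small RNF2 peaks of 0.408 to 1.59 kb and a chain of H2AK119ub islands scoring 5.996 to 27.2 followed. The 38.2 kb island at its start had the capped score of 1000.

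Between the paired genes the coverage was uneven. The 43.0 kb between TBX2 and TBX4 lay under RNF2 peaks for 67.3% and under H2AK119ub for 72.5% of its length, with 6.06 kb as the longest stretch free of RNF2. The 262 kb between TBX5 and TBX3 lay under RNF2 for 43.0% and under H2AK119ub for 46.1%, and there the longest RNF2-free stretch was 60.8 kb. The wide peaks of the paired genes were separate in the deposited list on both chromosomes.

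TBX6 (chromosome 16, 30085793 to 30091924) differed from the others. Its start site lay under an RNF2 peak of 1.52 kb and 4.12-fold, and a 0.515 kb peak of 3.98-fold followed upstream. The widest RNF2 peak of its window, 2.75 kb at 6.52-fold, was 4.20 kb upstream of the TBX6 start at its summit, over the higher-coordinate end of the neighbouring gene YPEL3 (30092314 to 30096213). RNF2 covered 18.3% of the TBX6 window, yet 2 H2AK119ub islands, both with the capped score, covered 96.2% of it. The island of 24.4 kb covered 100% of the gene body. The other, of 37.8 kb, ended at 30079800, below the gene, and had only 4008 bp in the window. Long islands without a wide RNF2 peak were common: of 5520 coding genes with at least 50% of the window under H2AK119ub, 89.0% had no RNF2 peak of 10 kb. Widths in the 2 lists are not like measures, however. The median over the whole list was 1347 bp for RNF2 peaks and 4600 bp for H2AK119ub islands, and how each list joined signal is not known. The TBX6 window also held the coding gene PPP4C, so its peaks cannot be given to TBX6 alone. Similarly, the wide RNF2 peaks at TBX2 and TBR1 reached over parts of the coding genes BCAS3 and PSMD14, and the TBX1 window overlapped the coding gene GNB1L.

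**Figure D2:**
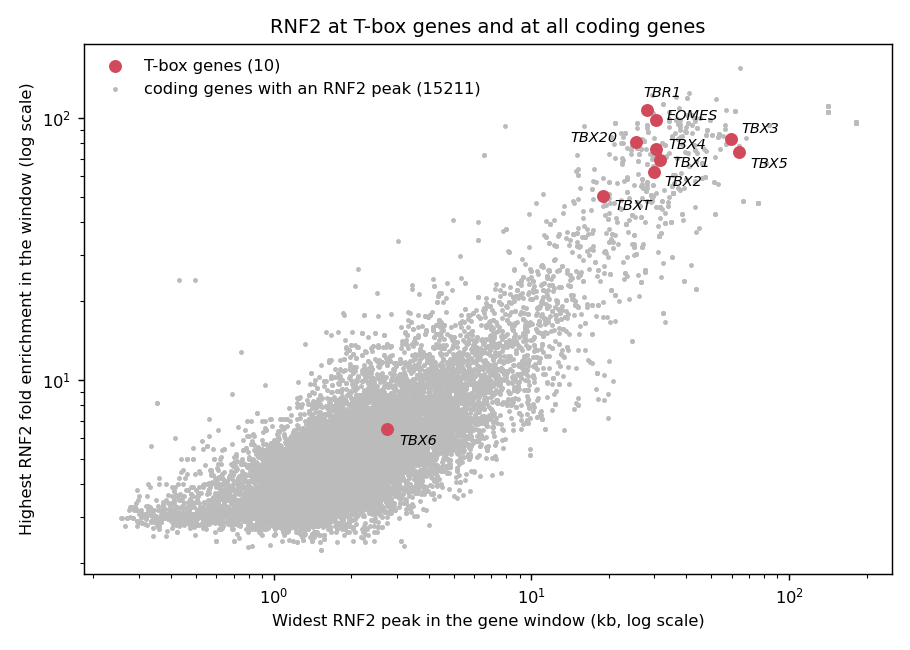
Width of the widest RNF2 peak in each gene window (x axis, kb, log scale) against the highest RNF2 fold enrichment in that window (y axis, log scale), for the 10 T-box genes and for 15211 coding genes with an RNF2 peak. The 9 genes with a wide peak sit at 19.0 to 64.0 kb and 50.4-fold to 107-fold, and TBX6 sits among the bulk of genes at 2.75 kb and 6.52-fold.

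Over the whole windows, the share under RNF2 peaks had a median of 75.04% for the members (18.3% to 100%) and 3.05% for all coding genes. At least 50% of the window was under RNF2 at 7 members, against 2.75% of coding genes. The share under H2AK119ub islands had a median of 91.4% for the members (30.3% to 100%) and 15.5% for all coding genes, and 9 members passed 50%, against 27.5% of coding genes. The share under wild-type YTHDF1 peaks had a median of 1.27% for the members (0% to 5.71%) and 0.790% for all coding genes. In order of RNF2 coverage the members ran TBX3, TBX2, TBR1, EOMES, TBX4, TBXT, TBX1, TBX5, TBX20 and TBX6. The share also depends on gene length. TBX5, with the widest RNF2 peak, has a body of 54.5 kb and TBX20 one of 51.7 kb, against 13.9 kb for TBX3. TBX6, last in this order, has a body of only 6.13 kb. With merged replicates no error stands behind this order, and neighbours in it cannot be told apart by replicate spread. By width, TBX1, EOMES, TBX4 and TBX2 were within 29.9 to 31.5 kb of each other.

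**Figure D3:**
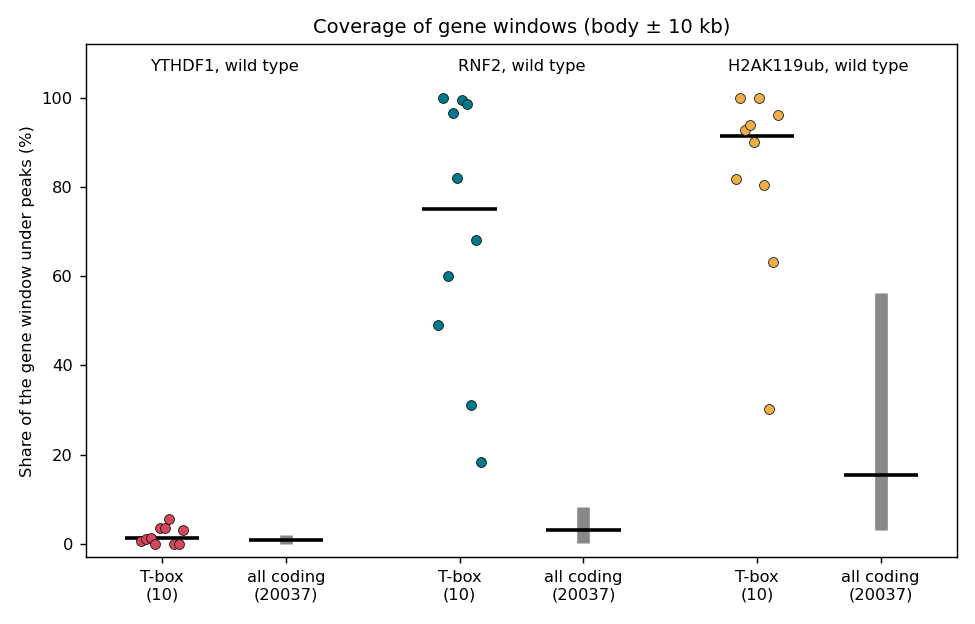
Percent of each gene window (body with 10 kb either side) under peaks of 3 wild-type lists. Points are the 10 T-box genes, grey bars span the middle 50% of 20037 coding genes, and black lines are medians. The T-box and all-coding medians stand at 75.04% and 3.05% for RNF2, at 91.4% and 15.5% for H2AK119ub, and at 1.27% and 0.790% for YTHDF1.

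At 4 of the 9 members with a wide RNF2 peak, TBXT, EOMES, TBX4 and TBX20, both ends of the longest island were within 1 kb of the ends of that peak, against 8.86% of all 711 RNF2 peaks of at least 10 kb. At the other members at least 1 border lay farther off, by up to 43.5 kb at TBX1, 27.9 kb at TBX5 and 11.5 kb at TBX2. All islands together covered 84.5% of the wide RNF2 peak at TBR1, 94.6% at TBX20, 95.9% at TBX5 and more at the others, up to 100% at TBXT, TBX1 and TBX2. The longest island that reached into each of the 10 windows had the capped score of 1000, so these islands could not be ranked by score. At TBX6 that island did not touch the gene body.

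The start sites were examined through the RefSeq promoter sequences, which run from 250 bases before to 50 after the start. Such sequences were matched for 8 of the 10 members, with 2 start sites each at TBXT and TBX5, and not for TBX2 and TBX3. A start site lay under an RNF2 peak at 8 of these 8 genes, against 65.4% of 15843 coding genes with a listed start, and under H2AK119ub at 8 of 8, against 72.1%. It lay under an RNF2 peak of at least 10 kb at 7 of 8, against 3.01%. The summit of the wide RNF2 peak was 1956 bp upstream of the listed start at EOMES, 1512 bp upstream at TBX20 and 1995 bp upstream at TBX4. It was downstream by 2101 bp at TBXT, 4790 bp at TBX1, 4883 bp at TBX5 and 7473 bp at TBR1. At TBX4 the listed start (61456488) and the summit (61454493) both lie inside the gene body, which begins at 61452422.

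The promoters differed widely in CG dinucleotides, the sites of DNA methylation and the base step that marks CpG islands. The sequences below show the promoters with the fewest and the most CG (TBR1 and TBX20), one at the median of coding promoters (EOMES), those whose start lies under YTHDF1 (TBX1 and TBX4), and that of the gene without a wide RNF2 peak (TBX6) (GRCh38.p14, 5′ to 3′ on the gene's strand, capitals mark each CG, a motif that reads the same on both strands).
TBR1, chr2:161416047-161416346, + strand: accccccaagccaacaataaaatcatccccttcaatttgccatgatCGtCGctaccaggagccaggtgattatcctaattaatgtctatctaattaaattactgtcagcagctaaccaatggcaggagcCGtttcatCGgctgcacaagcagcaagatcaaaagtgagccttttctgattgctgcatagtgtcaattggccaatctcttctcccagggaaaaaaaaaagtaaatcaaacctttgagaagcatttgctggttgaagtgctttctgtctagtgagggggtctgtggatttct
EOMES, chr3:27722274-27722573, - strand: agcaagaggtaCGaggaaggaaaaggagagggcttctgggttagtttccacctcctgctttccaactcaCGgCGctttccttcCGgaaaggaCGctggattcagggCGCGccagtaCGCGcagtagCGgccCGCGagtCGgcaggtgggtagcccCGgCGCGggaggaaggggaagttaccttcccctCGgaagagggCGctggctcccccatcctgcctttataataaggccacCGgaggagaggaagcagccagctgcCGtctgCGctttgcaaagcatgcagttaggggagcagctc
TBX20, chr7:35254051-35254350, - strand: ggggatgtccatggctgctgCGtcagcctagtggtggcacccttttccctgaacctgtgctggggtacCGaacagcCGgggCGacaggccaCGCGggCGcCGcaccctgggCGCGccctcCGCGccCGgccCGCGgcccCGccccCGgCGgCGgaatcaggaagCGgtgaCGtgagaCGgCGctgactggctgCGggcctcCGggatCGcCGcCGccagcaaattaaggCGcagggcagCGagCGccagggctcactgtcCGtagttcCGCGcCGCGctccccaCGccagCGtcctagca
TBX1, chr22:19756453-19756752, + strand: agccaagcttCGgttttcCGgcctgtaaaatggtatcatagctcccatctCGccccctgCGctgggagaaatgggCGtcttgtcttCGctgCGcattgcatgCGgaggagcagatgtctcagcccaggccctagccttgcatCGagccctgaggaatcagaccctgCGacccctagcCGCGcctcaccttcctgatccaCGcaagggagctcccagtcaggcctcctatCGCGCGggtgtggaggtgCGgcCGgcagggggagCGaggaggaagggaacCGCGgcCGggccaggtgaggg
TBX4, chr17:61456238-61456537, + strand: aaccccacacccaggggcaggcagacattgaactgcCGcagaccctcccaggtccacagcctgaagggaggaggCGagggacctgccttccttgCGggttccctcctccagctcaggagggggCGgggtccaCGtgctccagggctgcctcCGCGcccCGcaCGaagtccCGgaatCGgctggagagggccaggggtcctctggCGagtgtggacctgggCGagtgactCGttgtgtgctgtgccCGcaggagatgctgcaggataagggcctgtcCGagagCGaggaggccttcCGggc
TBX6, chr16:30091875-30092174, - strand: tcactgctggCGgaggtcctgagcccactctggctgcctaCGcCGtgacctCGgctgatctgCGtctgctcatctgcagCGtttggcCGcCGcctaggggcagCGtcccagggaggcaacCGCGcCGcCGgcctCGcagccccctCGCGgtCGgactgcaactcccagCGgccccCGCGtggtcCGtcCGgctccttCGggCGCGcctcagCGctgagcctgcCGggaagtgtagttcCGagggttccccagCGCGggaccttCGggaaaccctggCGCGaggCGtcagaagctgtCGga

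The TBR1 promoter held 4 CG, a number that 85.5% of 22199 coding promoters reached or passed, and 43.3% G and C. The TBX20 promoter held 38 CG, reached or passed by 12.7% of promoters, and the TBX6 promoter 35, reached or passed by 18.2%. The median of all coding promoters was 21 CG. TBR1, with the fewest CG, had the highest RNF2 fold of the members. The summit of that peak, however, lay 7473 bp downstream of the listed start, outside the promoter sequence. CG at the summit and along the peak was not counted, so the 2 values describe different DNA. TBX6, with the second most CG, had the shortest RNF2 peak over its start. TBX20, with the most CG, had its start under a 25.4 kb peak of 80.8-fold. The other listed promoters held 15 and 21 CG at TBX5, 18 at TBX4, 21 at EOMES, 22 at TBX1, and 22 and 25 at TBXT. The T-box half-site AGGTGTGA, or its reverse complement TCACACCT, was in none of the 10 member promoters and in 0.928% of all coding promoters, which says only that these letters are not in these windows.

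**Figure D4:**
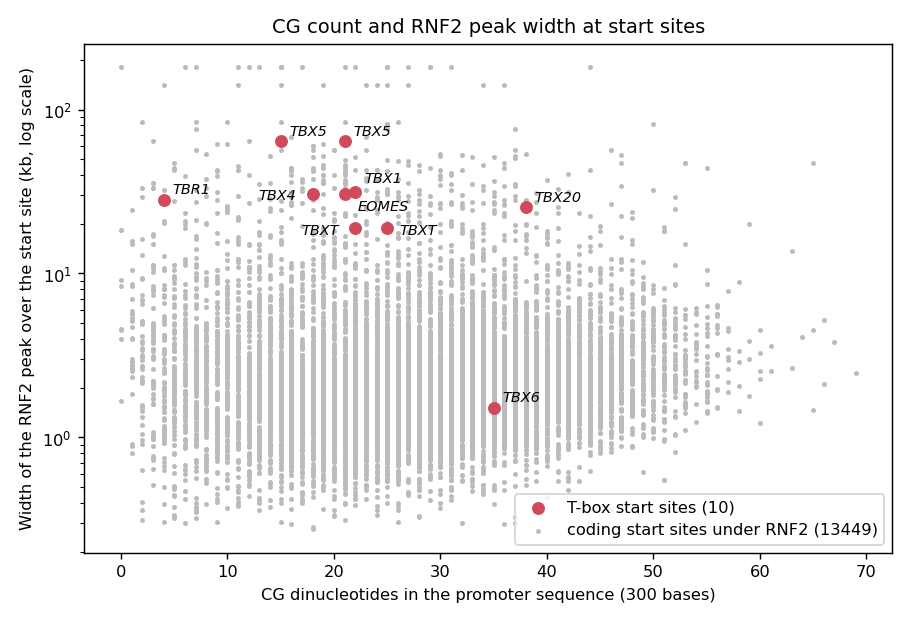
Number of CG dinucleotides in the 300-base promoter sequence (x axis) against the width of the RNF2 peak over its start site (y axis, kb, log scale), for 10 T-box start sites of 8 genes and 13449 coding start sites under RNF2. TBR1 with 4 CG lies under a 28.2 kb peak and TBX6 with 35 CG under a 1.52 kb peak.

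YTHDF1 was compared between knockdown and wild-type cells at the same windows. The samples held no group with a control shRNA, so effects of the shRNA treatment itself cannot be told apart from those of the knockdown. The knockdown list of 226 peaks had no peak at any of the 10 members, and the wild-type list of 44498 peaks had 11, at 7 members. Among coding genes 1.14% had a knockdown peak and 65.7% a wild-type peak, so both counts at the members were near the background. The closest knockdown peak was 856 kb from TBX6, and the distance reached 20299 kb at TBXT. The lowest −log10 q was 4.01 in the knockdown list and 1.502 in the wild-type list. Only 2 of the 11 wild-type peaks, one each at TBX1 and in the TBX6 window, had a −log10 q of at least 4, and 5.48% of coding genes had such a peak. The absence of knockdown peaks at the other 9 positions cannot be told apart from the stricter lower limit of the knockdown list. The peaks at TBX1 and in the TBX6 window, with −log10 q of 4.66 and 4.22, were close to that limit. With depth unknown, a loss at these 2 positions was not tested.

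The strongest wild-type YTHDF1 peak was at TBX1, 659 bp wide at 3.92-fold with a −log10 q of 4.66 (chromosome 22, 19756395 to 19757053). It covered the TBX1 start site, with its summit 107 bp upstream, within the promoter sequence printed above. Of all wild-type YTHDF1 peaks, 1.08% had at least this fold. The second, 3.72-fold with a −log10 q of 4.22, lay in the TBX6 window but over the higher-coordinate end of YPEL3 (chromosome 16, 30095987 to 30096325). TBX4 had the most YTHDF1 peaks, 3 inside its wide RNF2 peak, at 2.90-fold, 3.08-fold and 3.37-fold. The first of these was 1008 bp wide and covered the listed TBX4 start site, with its summit 83 bp downstream. The others lay 12779 and 14212 bp downstream. That listed start, at 61456488, lies inside the gene body, which begins at 61452422, so the first peak did not cover the 5′ end of the body. TBX1 and TBX4 were thus the members with YTHDF1 at a listed start site, 2 of 8, against 13.5% of coding genes.

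The remaining peaks were weak. TBX2 had YTHDF1 peaks of 2.998-fold and 2.81-fold, both beyond its higher-coordinate end, and the first lay over the non-coding gene LINC02875. TBX3 had a peak of 2.94-fold, TBX5 of 2.62-fold and TBR1 of 2.81-fold, all inside the gene body. The TBR1 peak was the widest, at 1690 bp, 4777 bp downstream of the start at its summit. TBX6 had a peak of 2.75-fold in its body. TBXT, EOMES and TBX20 had no YTHDF1 peak in their windows. The nearest to EOMES, at 2.55-fold, was 13.7 kb from the gene, just outside the window and inside the wide RNF2 peak, and the nearest to TBXT and TBX20 were 57.4 and 82.9 kb away. A 2.95-fold peak 14.8 kb from TBX3 and a 3.23-fold peak 11.4 kb from TBX4 also lay just outside.

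**Figure D5:**
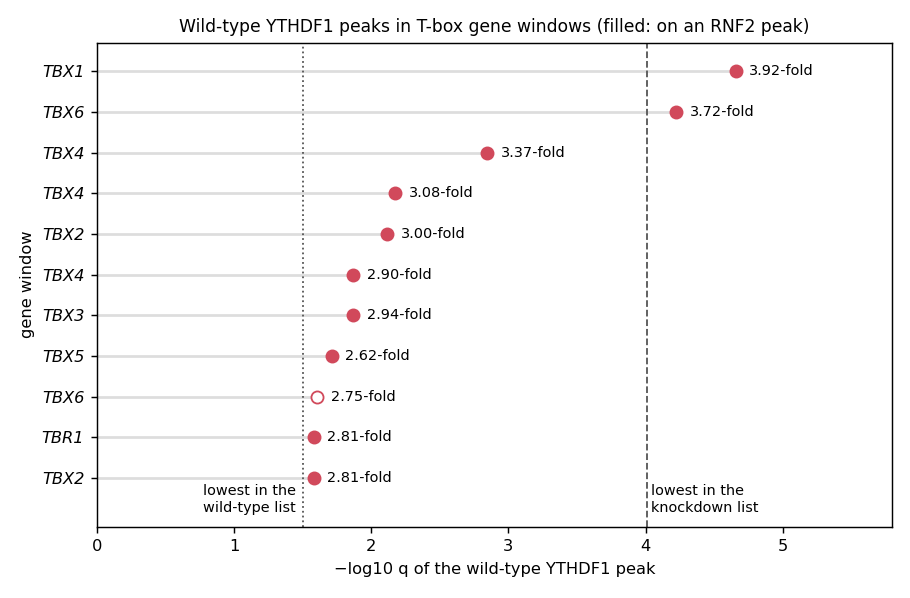
The 11 wild-type YTHDF1 peaks in T-box gene windows by −log10 q (x axis), each with its fold enrichment, and filled where the peak overlaps an RNF2 peak. The dashed and dotted lines are the lowest −log10 q of the knockdown list (4.01) and of the wild-type list (1.502). The peaks at TBX1 and in the TBX6 window lie to the right of the dashed line.

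Of the 11 YTHDF1 peaks in member windows, 10 (90.9%, exact binomial 95% interval 58.7 to 99.8%) overlapped an RNF2 peak, against 12.7% of the whole list (12.4 to 13.0%). On H2AK119ub islands lay 11 of 11 (71.5 to 100%), against 28.3% of the whole list (27.9 to 28.8%). The intervals cover counting error only and treat the peaks as independent. Peaks of 1 gene share their locus, so the intervals are not a test. RNF2 covered 64.9% of the summed member windows, against 4.36% of all coding windows, so a peak placed anywhere in a member window would often meet RNF2. That 64.9% lies inside the interval of 58.7 to 99.8%, so the overlap is not set apart from the coverage of these windows. H2AK119ub islands covered 78.2% of the member windows, against 18.7% of all coding windows, so such a peak would mostly meet an island too. The 78.2% likewise lies inside the interval of 71.5 to 100%. The YTHDF1 peak that met no RNF2 was the 2.75-fold peak in the TBX6 body. All 3 wild-type features were present at 7 members, against 55.7% of coding genes. Among the 9 members with a wide RNF2 peak, 6 had YTHDF1, against 77.3% of the 877 coding genes with such a peak.

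Of the family members outside the 10, TBX10, TBX15, TBX18, TBX19, TBX21, TBX22 and MGA, 5 of 7 had an RNF2 peak, 5 an H2AK119ub island, 0 a knockdown YTHDF1 peak and 4 a wild-type one. The shares of coding genes were 75.9%, 81.6%, 1.14% and 65.7%, so these counts were near or below the background. An RNF2 peak of at least 10 kb was present at 2 of the 7, against 4.38% of coding genes. These were TBX15 (43.7 kb, window maximum 100.1-fold) and TBX18 (29.4 kb, 123-fold). Both belong to the TBX1 subfamily, as do TBX10 and TBX22, which had no such peak. TBX21, the T-bet gene of T cells and a relative of EOMES and TBR1, had at most 4.14 kb. TBX10 had at most 2.38 kb but the strongest YTHDF1 peak of the whole family, 4.77-fold. MGA, which joins a T domain to a MAX-binding domain and is itself a PRC1 partner, had at most 4.45 kb. TBX19, a pituitary factor of the TBXT subfamily, and TBX22, a palate factor on chromosome X, had no RNF2 peak and no island.

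Genes known to act with or under T-box factors were counted by the same windows. Of 18 primitive streak and mesoderm genes, 17 had RNF2, 18 H2AK119ub, 0 knockdown YTHDF1 and 12 wild-type YTHDF1, beside 75.9%, 81.6%, 1.14% and 65.7% of coding genes. An RNF2 peak of at least 10 kb was present at 7 of them, the widest at SOX17 (34.2 kb), LHX1 (32.9 kb) and GSC (22.3 kb), and MSGN1 had none of any width. Their median window share under RNF2 was 29.5%, and under H2AK119ub 83.9%. Of 16 cardiac and limb genes, 12 had RNF2, 16 H2AK119ub, 0 knockdown YTHDF1 and 9 wild-type YTHDF1. The RNF2 and YTHDF1 counts of this list were near or below the shares of coding genes just given. Here 9 had an RNF2 peak of at least 10 kb, against 4.38% of coding genes, the widest at GATA4 (64.3 kb), HAND2 (57.0 kb) and HAND1 (40.8 kb). The natriuretic peptide genes NPPA and NPPB, the gap junction gene GJA5 and SALL4 had no RNF2 peak. The median window share in this list was 64.8% under RNF2 and 79.2% under H2AK119ub.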

How the data were processed

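The 12 libraries formed 6 groups of 2 replicates, and the authors deposited 1 peak list from the merged replicates of each of 4 ChIPs, 3 wild-type and 1 knockdown. The submitters' processing notes name hg38, the callers MACS2 2.1.0 and SICER 1.1, and Picard, SAMtools 1.3.1, Bowtie2 2.2.5 and Trimmomatic 0.35, without settings. The sources used here do not say which caller and threshold made which list. Lists for YTHDF1 and RNF2 carry, as deposited, a fold enrichment (ratio), −log10 p, −log10 q, a summit and a score. In every row the score was 10 times the −log10 p without its decimals, at most 1000. The deposited H2AK119ub list carries a score of unstated scale, capped at 1000; every island is a multiple of 200 bp wide when its end is read as the last base. Folds, −log10 values and scores describe or filter peaks within a list. The YTHDF1 lists were used in full, and a common −log10 q minimum of 4 was applied only in the counts that name it. Depth per library was unknown.

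Coordinates are 1-based. Genes came from RefSeq (GRCh38.p14), with 20037 coding genes on 22 autosomes, X and Y; exons were not used. A peak belonged to a window with at least 1 bp in it. No tests were run: counts and medians of the members stand beside those of all coding genes under the same rule. The members and gene lists were chosen with earlier results of these data known. All 10 members are named; of the other lists, the 3 genes with the widest RNF2 peak and those with none, except that all 7 other T-box genes are described. Overlap code was tested on simulated intervals (Python 3.11.15, NumPy 2.4.6, pandas 2.3.3, SciPy 1.17.1).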

Additional observations from a re-analysis of the deposited data

How the results depend on the processing

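No paired analysis was possible because the replicates of each group had been merged into 1 list before deposit, and for the same reason no replicate could be left out. Of 51 alternatives, 43 left the value within 1.5 times of the one reported. The members with YTHDF1, and those with all 3 wild-type features, numbered 4 with the better-scoring 50% of each list and 2 with a −log10 q of at least 4, which also left 2 YTHDF1 peaks on RNF2. With 50 kb either side, the median window share fell to 43.0% for RNF2 and 60.9% for H2AK119ub. Merging RNF2 peaks within 1 kb left 22 in place of 37. RNF2 was at 10 members under every window, midpoint and score setting run, and H2AK119ub at 10 except by midpoint, with 9. Knockdown YTHDF1 was at 0 members in all settings run, but none of them could have changed this count. The nearest knockdown peak lay 856 kb from a member, beyond the 50 kb flank, and the other settings only narrow windows or remove peaks. The alternatives for this count are among the 43. Coding genes with bodies of 6132 to 54532 bp (10386 genes) gave backgrounds of 62.4% for YTHDF1, 76.4% for RNF2 and 82.4% for H2AK119ub. The widths of 5 and 20 kb for wide RNF2 peaks, the gene body alone and merged peaks were tried after the data had been seen, and gave 8 or 9 members. The scale of H2AK119ub scores and the depth of each list limit any comparison of strength.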

Other observations

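Across all coding start sites, the share under an RNF2 peak rose with the number of CG in the promoter sequence, but the share under a wide one did not rise steadily. Of promoters with 0 to 5 CG, 6.81% had their start under RNF2 and 0.865% under an RNF2 peak of at least 10 kb. The shares were 39.9% and 3.15% with 6 to 15 CG, 76.9% and 4.30% with 16 to 25, and 90.6% and 3.38% with 26 or more. TBR1, with 4 CG at its listed start and a 28.2 kb RNF2 peak, thus belonged to the class where wide RNF2 peaks were rarest. TBX6, with 35 CG and a 1.52 kb peak, belonged to the class where any RNF2 peak was most frequent.

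The coding genes whose window coverage was closest to the members' medians, by Euclidean distance over the percent covered by 3 wild-type lists (YTHDF1, RNF2 and H2AK119ub), were MARCHF9, ATP6V1B1 and BTG2. The percents were not scaled, so YTHDF1 weighed little in this distance. Among the members its share ran from 0% to 5.71%, against 18.3% to 100% for RNF2. At MARCHF9, ATP6V1B1 and BTG2, RNF2 covered 76.1%, 73.9% and 77.2% of the windows, and H2AK119ub 92.1%, 90.3% and 91.7%. Their widest RNF2 peaks, 17980, 10564 and 12368 bp, were narrower than those of the 9 T-box genes with a wide peak.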
